A study of Homo sapiens with 10 samples.

Results

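Genes named ZNF make up much of the largest family of human transcription factors, the C2H2 zinc finger proteins, and 158 of them were expressed above background in sorted BCC subsets. The breast cancer cells (BCCs) were MDA-MB-231, a human basal-like breast cancer line, stably transfected with pEGFP1-Oct3/4, in which the Oct4A promoter drives GFP, and selected with neomycin. All subsets carried this reporter. They were sorted on GFP, so they differ in reporter brightness, and the transcript of Oct4 itself is not analysed here. By the labels and the methods, Oct4hi BCCs were the brightest 5% (4 arrays), Oct4med BCCs the population between the extremes (2 arrays) and Oct4low BCCs the dimmest 5% (4 arrays). Elsewhere the study's text gives a wider gate for Oct4low BCCs, so the width of that gate is not settled. The RNA came from 4 experiments, and whether the transfectants were 1 clone is not given in the sources used here. Each array, an Affymetrix U133 Plus 2.0 with probe sets for transcripts, received material from 100 ng of total RNA, and its values are log2 intensities.

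The members were the genes whose platform symbol is ZNF and a number. Each gene was represented by its brightest probe set, and that probe set had to average at least 6.0 on the log2 scale over all 10 arrays. Of 330 such genes in the table, 158 reached 6.0 and 172 did not. The array medians were 5.05 to 5.14, and 5137 of the 12082 genes of the table reached 6.0. The members were thus chosen by their mean level over all arrays, not by a difference between subsets. They averaged 6.002 to 10.37, with a median of 7.08, which is a description only. Just inside the limit were ZNF37A (6.002), ZNF296 (6.02) and ZNF26 (6.06), and just outside it were ZNF480 (5.98), ZNF529-AS1 (5.94) and ZNF248 (5.92). By RefSeq, 150 members are protein-coding genes, 5 are antisense RNAs (ZNF232-AS1, ZNF143-AS1, ZNF436-AS1, ZNF407-AS1 and ZNF674-AS1) and 3 are transcribed pseudogenes (ZNF826P, ZNF788P and ZNF37BP). Chromosome 19 holds 76 of them. Chromosomes 16 and 7 hold 10 each, chromosome 1 holds 9, and 16 further chromosomes share the remainder.

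Most ZNF proteins bind DNA through a row of C2H2 fingers, in which paired cysteines and histidines hold a zinc ion and each finger reads a few bases. Many also carry a KRAB domain, which binds the corepressor TRIM28 and through it brings histone methyltransferases, heterochromatin proteins and DNA methylation to the bound site. KRAB genes arose by repeated duplication, lie in clusters that are densest on human chromosome 19, and many silence transposable elements. Some ZNF genes without KRAB encode chromatin regulators or proteins that act on RNA, SUMO or the mitotic spindle. Duplicated genes share sequence, so a probe set can read more than 1 of them. The manufacturer marks such probe sets with the suffixes _x_at and _s_at.

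The labelled line was checked against its markers. Of the 10 markers of MDA-MB-231 cells listed for this check, 8 were in the table and 5 reached 6.0 (ANXA1, CAV1, CD44, PLAU and S100A4). EGFR averaged 5.90, and the single probe sets for MSN and VIM averaged 4.96 and 3.95. In Oct4hi against Oct4low BCCs ANXA1 (-0.65), CAV1 (-0.35) and CD44 (-0.35) fell and S100A4 (0.26) rose. PLAU (0.02, adjusted p = 0.861) and EGFR (0.10, adjusted p = 0.352) did not pass. Of the 9 leukocyte markers in the table, 0 reached 6.0. Markers of luminal breast cells had 5 of 10 at or above 6.0, among them GATA3, XBP1 and MLPH. Their summed level, as the mean over the list, was 6.17 to 6.24 in Oct4hi, 6.22 to 6.29 in Oct4med and 6.39 to 6.48 in Oct4low arrays, with CDH1 at 4.01 and PGR at 3.27. Of 4 erythroid markers in the table, 2 reached 6.0, and their mean was 5.81 to 6.01 in Oct4hi, 5.75 to 5.92 in Oct4med and 5.61 to 5.73 in Oct4low arrays. Of 9 stromal markers 2 reached 6.0. Single markers carried these means. Of the luminal markers MLPH (-0.87), GATA3 (-0.76) and TFF1 (-0.48) fell in Oct4hi against Oct4low BCCs, while EPCAM (0.18, adjusted p = 0.0896) did not pass, and TFF1 was lowest in Oct4med BCCs. The erythroid mean followed HBE1, at 7.95 in Oct4hi, 7.89 in Oct4med and 7.21 in Oct4low BCCs, while GATA1 (adjusted p = 0.998) and TAL1 (adjusted p = 0.832) did not pass. The part of these markers in the ZNF results was not tested.

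Most of the expressed ZNF genes that passed the test were higher in Oct4hi BCCs. Against Oct4low BCCs, 59 of the 158 rose, 4 fell and 95 did not pass the test (limma's moderated test, adjusted p under 0.05). The share that rose was 37.3%, where 18.2% of all tested probe sets and 27.1% of all genes at or above 6.0 rose. The share that fell was 2.53%, where 16.7% of all tested probe sets and 18.1% of genes at or above 6.0 fell. The median difference of the members was 0.18 on the log2 scale, against 0.05 for all genes at or above 6.0 and -0.00 for all tested probe sets. Single differences ran between -0.41 and 0.81, so that 0 members passed 2-fold. Those that rose had a median difference of 0.39. Across the 3 subsets at once, 83 members (52.5%) differed by limma's F-test, where 44.5% of tested probe sets and 55.3% of genes at or above 6.0 did. The members thus differed about as often as other genes of their level, with more of the differences upward in Oct4hi BCCs. These shares were not tested against each other.

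The direction could be read on single arrays. Relative to each gene's own mean, the median member lay at 0.11, 0.12, 0.03 and 0.13 on the 4 Oct4hi arrays, at -0.13 and 0.01 on the 2 Oct4med arrays, and at -0.08, -0.08, -0.03 and -0.08 on the 4 Oct4low arrays. For all genes at or above 6.0, the same medians were 0.01 to 0.05 on Oct4hi, -0.08 and 0.00 on Oct4med and -0.03 to 0.02 on Oct4low arrays. All 4 Oct4hi arrays were above all 4 Oct4low arrays in the members, while the Oct4med replicates lay far apart. Replicates of a member had a median SD of 0.10 in Oct4hi, 0.13 in Oct4med and 0.11 in Oct4low BCCs.

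**Figure D1:**
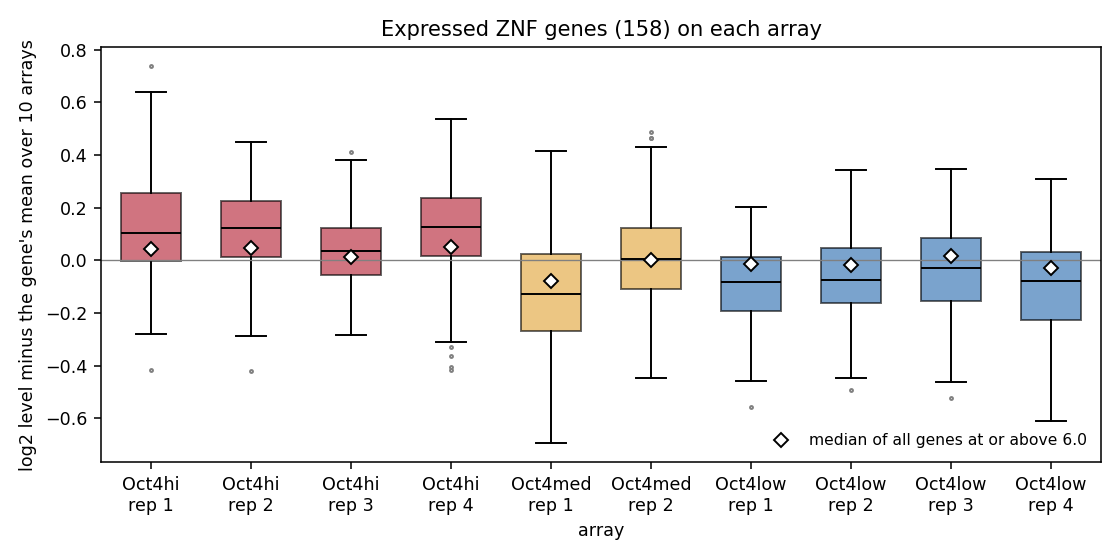
Log2 level of each of the 158 expressed ZNF genes minus that gene's mean over the 10 arrays (vertical axis), by array (horizontal axis; boxes are quartiles with the median, whiskers reach 1.5 times the box, points lie beyond, white diamonds are the median of all 5137 genes at or above 6.0). The ZNF medians of the Oct4hi arrays (0.03 to 0.13) lie above those of the Oct4low arrays (-0.08 to -0.03), and Oct4med replicate 1 is the lowest (-0.13).

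**Figure D2:**
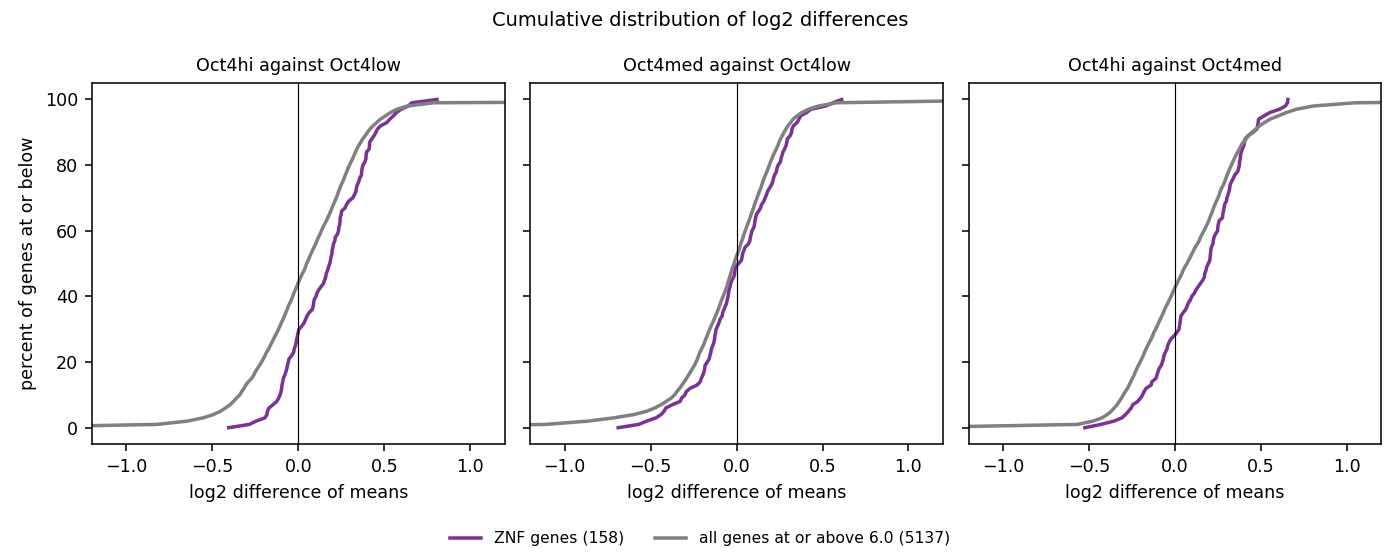
Percent of genes (vertical axis) with a log2 difference of means at or below the value on the horizontal axis, for the 158 ZNF genes and for all 5137 genes at or above 6.0, in each comparison. The ZNF curve is to the right of the other in Oct4hi against Oct4low (medians 0.18 and 0.05) and in Oct4hi against Oct4med (0.19 and 0.07), and close to it in Oct4med against Oct4low (0.01 and -0.01).

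The rise was also counted by level and by probe set type. Among members with a mean of 6 to 7, 38.4% rose in Oct4hi against Oct4low BCCs, where 14.9% of other genes of that level did. At 7 to 8 the shares were 39.3% of members and 26.6% of other genes, and at 8 or more they were 31% of members and 35.9% of other genes. The larger share among members was thus seen below 8. Of the members read by an _x_at probe set 10 of 27 rose, of those read by an _s_at probe set 9 of 21, and of those with neither suffix 40 of 110. The 29 expressed genes with the related names ZFP, ZSCAN, ZKSCAN and ZBTB had 8 that rose (27.6%) and 1 that fell (3.45%). Their median difference was 0.01. Of all genes at or above 6.0, 27.1% rose, so the related genes rose about as often, and 18.1% fell.

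The largest rises were in KRAB genes of chromosome 19 and in a pair of pseudogenes there. ZNF566, a KRAB gene, had 6.76, 6.52, 6.30 and 6.57 in Oct4hi arrays, 5.92 and 6.19 in Oct4med arrays, and 5.56, 5.96, 5.78 and 5.61 in Oct4low arrays. Its difference of Oct4hi from Oct4low BCCs was 0.81 ± 0.12 (SE; adjusted p = 0.000338), and every Oct4hi array was above every Oct4low array. ZNF850, another KRAB gene, had 6.83, 6.89, 6.91 and 6.88 in Oct4hi arrays, 6.43 and 6.57 in Oct4med arrays, and 6.45, 6.11, 6.07 and 6.16 in Oct4low arrays. The difference was 0.68 ± 0.09 (SE; adjusted p = 0.00016), and its Oct4hi arrays lay within 6.83 to 6.91. ZNF682, also with KRAB, had 6.85, 6.96, 6.84 and 6.95 in Oct4hi arrays, 6.61 and 6.68 in Oct4med arrays, and 6.21, 6.32, 6.30 and 6.39 in Oct4low arrays. It was the only member to pass in all 3 comparisons in steps of 1 direction: Oct4hi exceeded Oct4low BCCs by 0.60 ± 0.07 (SE; adjusted p = 7.86e-05), Oct4med exceeded Oct4low BCCs by 0.34 ± 0.09 (SE; adjusted p = 0.0159), and Oct4hi exceeded Oct4med BCCs by 0.26 ± 0.09 (SE; adjusted p = 0.0418). The step between Oct4hi and Oct4med was the least firm. It no longer passed without Oct4med replicate 1 (0.22, adjusted p = 0.23), Oct4med replicate 2 (0.29, adjusted p = 0.0646), Oct4hi replicate 1 (0.28, adjusted p = 0.057), Oct4hi replicate 2 (0.24, adjusted p = 0.0912), Oct4hi replicate 4 (0.24, adjusted p = 0.0869) or Oct4low replicate 2 (0.26, adjusted p = 0.0598). The step between Oct4med and Oct4low was lost without Oct4med replicate 1 (adjusted p = 0.052) or replicate 2 (adjusted p = 0.0802).

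The promoters of these 3 genes are shown as those with large rises, and that of ZNF362 as the fall with the smallest adjusted p. Each is 250 bases before to 50 after a RefSeq start, read 5′ to 3′ on the gene's strand in GRCh38.p14, with matches to the motifs below in capitals. ZNF566 lies at chr19:36489512-36489811 (minus strand), ZNF850 at chr19:36772758-36773057 (minus strand), ZNF682 at chr19:20039456-20039755 (minus strand) and ZNF362 at chr1:33256242-33256541 (plus strand).
ZNF566: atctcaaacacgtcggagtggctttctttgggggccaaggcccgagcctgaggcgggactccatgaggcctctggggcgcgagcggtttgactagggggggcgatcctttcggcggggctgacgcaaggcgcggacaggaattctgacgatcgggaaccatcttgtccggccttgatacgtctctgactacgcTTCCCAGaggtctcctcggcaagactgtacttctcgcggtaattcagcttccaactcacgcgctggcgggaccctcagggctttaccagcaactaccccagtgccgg
ZNF850: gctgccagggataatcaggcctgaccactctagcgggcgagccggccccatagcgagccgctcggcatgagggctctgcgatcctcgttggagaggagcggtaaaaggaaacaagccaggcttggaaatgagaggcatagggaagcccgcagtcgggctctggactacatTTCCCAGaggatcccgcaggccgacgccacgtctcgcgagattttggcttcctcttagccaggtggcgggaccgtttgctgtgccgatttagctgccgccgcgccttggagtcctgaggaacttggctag
ZNF682: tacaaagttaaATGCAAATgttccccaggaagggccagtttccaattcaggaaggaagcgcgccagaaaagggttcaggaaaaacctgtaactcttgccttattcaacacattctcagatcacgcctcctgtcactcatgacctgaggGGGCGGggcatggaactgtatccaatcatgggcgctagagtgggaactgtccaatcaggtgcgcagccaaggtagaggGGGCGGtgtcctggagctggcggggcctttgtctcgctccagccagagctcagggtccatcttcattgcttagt
ZNF362: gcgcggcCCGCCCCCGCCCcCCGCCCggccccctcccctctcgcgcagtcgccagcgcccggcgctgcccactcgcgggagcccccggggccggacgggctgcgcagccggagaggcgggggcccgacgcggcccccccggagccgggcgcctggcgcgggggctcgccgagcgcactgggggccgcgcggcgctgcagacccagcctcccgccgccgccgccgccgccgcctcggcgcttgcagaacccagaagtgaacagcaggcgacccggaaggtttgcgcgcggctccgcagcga
The capitals mark TTCCCAG at -57 in ZNF566 and at -80 in ZNF850. In ZNF682 they mark the octamer ATGCAAAT at -239 and GGGCGG at -102 and -24. In ZNF362 they mark GGGCGG on the reverse strand at -243, -237 and -230. Positions give the first base from the start.

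Promoters were found for 137 of the 158 members, 184 in all, and the motifs were searched on both strands. The octamer ATGCAAAT is the site read by POU family factors, to which Oct4 belongs. It was in 5 of 74 promoters of members that rose in Oct4hi against Oct4low BCCs (6.76%), in 0 of 110 promoters of other members, in 3.67% of 463 promoters of ZNF genes that were not members and in 1.77% of all 35116 promoters. Among other genes at or above 6.0 it was in 1.25% of promoters of genes that rose and in 1.53% of those that did not. The 5 windows are printed because some of them share more than the octamer.
ZNF430: acaaggttaaATGCAAATaacctctggg
ZNF92: acaaggttaaATGCAAATactgtctggg
ZNF682: acaaagttaaATGCAAATgttccccagg
ZNF680: gggttatATGCAAATactctctggt
ZNF844: tttggccgaaATGCAAATtttcaaagag
They lie at chr19:21020408-21020435 (ZNF430, plus strand), chr7:65373605-65373632 (ZNF92, plus strand), chr19:20039727-20039754 (ZNF682, minus strand), chr7:64563297-64563321 (ZNF680, minus strand) and chr19:12064510-12064537 (ZNF844, plus strand). The match began at -239, -240, -239, -243 and -211 from the start in the order printed. Of the 10 bases before the octamer, 10 were identical between ZNF430 and ZNF92 and 9 between either of them and ZNF682, so these 3 promoters are not independent of each other. ZNF680 shared 4 or 5 of its 7 bases with those 3, and ZNF844 shared 2 or 3 of 10. The 5 genes rose by 0.37 (ZNF430, adjusted p = 0.00762), 0.34 (ZNF92, adjusted p = 0.00908), 0.60 (ZNF682), 0.38 (ZNF680, adjusted p = 0.0105) and 0.37 (ZNF844, adjusted p = 0.00124). A match is a run of letters and no measured binding.

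Other motifs were counted in the same way. For other genes at or above 6.0, the share of genes that rose in Oct4hi against Oct4low BCCs precedes that of genes that did not. For CCGGAAGT these shares were 6.99% and 5.64%, for ACTACAAT 0.749% and 0.503%, for TGACGTCA 2.68% and 2.74%, and for TATAAA 6.55% and 7.43%. For GGGCGG (64.1% and 64.6%), GCATGCGC (4.8% and 3.79%) and AAGATGGC (4.62% and 4.04%) they were near the members' shares. CCGGAAGT, the ETS core, was in 15.8% of member promoters, 13.8% of promoters of ZNF genes that were not members and 4.14% of all promoters. It was in 17.6% of promoters of members that rose and 14.5% of those of other members. ACTACAAT, part of the element read by ZNF143, was in 4.35% of member promoters, 0.864% of promoters of ZNF genes that were not members and 0.638% of all promoters. GGGCGG, the GC box, was in 62% of member promoters, 59.2% of promoters of ZNF genes that were not members, 45% of all promoters and 56.3% of those of protein-coding genes. TATAAA was in 2.17% of member promoters (0 of 74 of members that rose and 4 of 110 of other members), 5.18% of promoters of ZNF genes that were not members and 11.5% of all promoters. TGACGTCA was in 3.8% of member promoters (5.41% of members that rose, 2.73% of others) and 1.85% of all promoters. GCATGCGC was in 4.89% of member promoters and 3.05% of all promoters, and AAGATGGC in 3.8% and 2.89%. TTCCCAG, chosen after the promoters were seen, was in 22.8% of member promoters, 24% of promoters of ZNF genes that were not members and 10.8% of all promoters. For other genes at or above 6.0 it was in 9.73% and 9.94%. It was in 29.7% of promoters of members that rose and 18.2% of those of other members. ZNF566 and ZNF850, which hold it, are among those that rose, so this contrast cannot be read apart from the choice. By chromosome, it was in 28.3% of promoters of chromosome 19 members and 17.4% of those of members elsewhere.

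**Figure D3:**
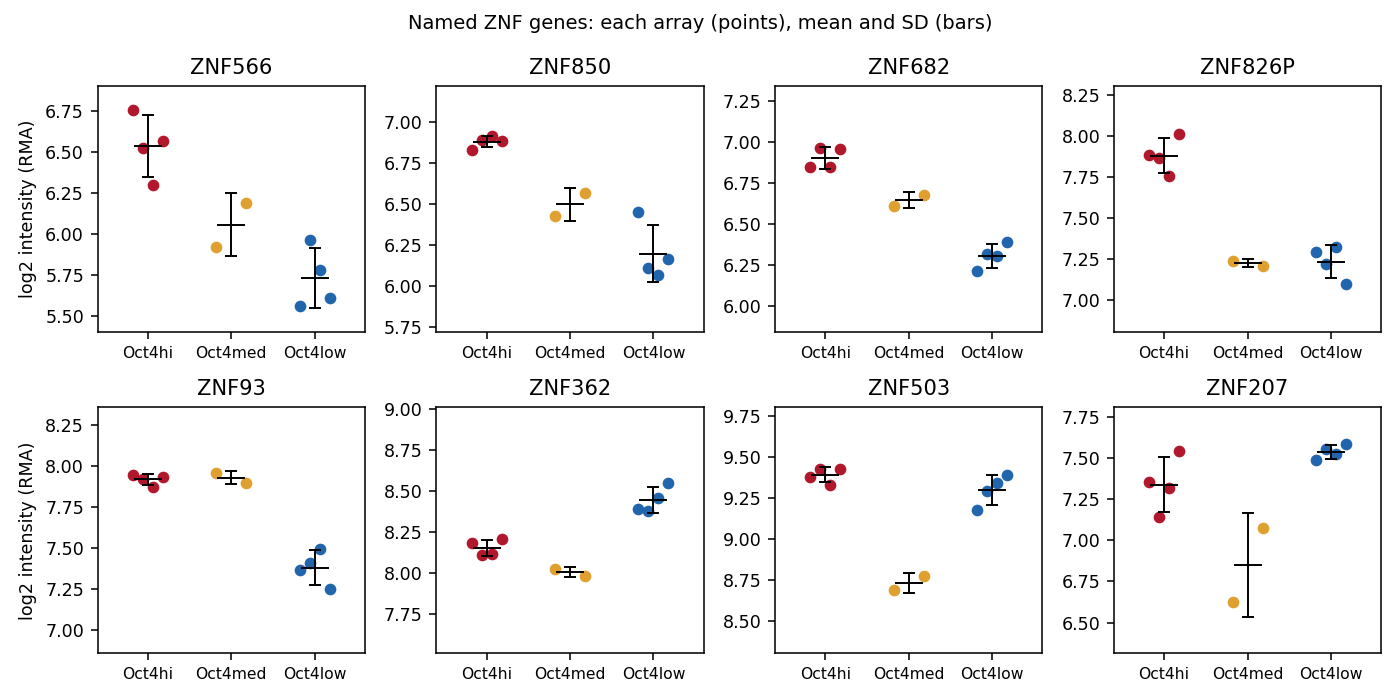
Log2 intensity (vertical axis) of 8 named ZNF genes in Oct4hi, Oct4med and Oct4low arrays (points), with the mean and SD (bars); each panel spans 1.5 log2 units. In the brightest probe set of each gene, ZNF566, ZNF850 and ZNF682 are highest in Oct4hi BCCs, and ZNF826P is high in Oct4hi BCCs alone. ZNF93 is low in Oct4low BCCs alone, and ZNF362, ZNF503 and ZNF207 are lowest in Oct4med BCCs.

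By their brightest probe sets, both pseudogenes of chromosome 19 were raised in Oct4hi BCCs alone. ZNF826P had 7.89, 7.87, 7.75 and 8.01 in Oct4hi arrays, 7.24 and 7.21 in Oct4med arrays, and 7.29, 7.22, 7.33 and 7.10 in Oct4low arrays. Its differences were 0.65 ± 0.08 (SE; adjusted p = 0.000108) from Oct4low BCCs and 0.66 ± 0.10 (SE; adjusted p = 0.000585) from Oct4med BCCs. A dimmer probe set of ZNF826P also rose in Oct4hi against Oct4low BCCs (0.40, adjusted p = 0.0198). It did not differ between Oct4hi and Oct4med BCCs (0.04, adjusted p = 0.841), so the shape of ZNF826P depends on the probe set. ZNF788P had 7.56, 7.66, 7.62 and 7.56 in Oct4hi arrays, 6.84 and 7.07 in Oct4med arrays, and 7.01, 6.96, 6.87 and 6.98 in Oct4low arrays, with a difference of 0.65 ± 0.07 (SE; adjusted p = 6.71e-05) from Oct4low BCCs. In the brightest probe set of both genes the Oct4med and Oct4low arrays overlapped, and that of ZNF826P is of the _x_at type. ZNF331, an imprinted KRAB gene, had the same shape, with 7.03, 7.01, 7.08 and 7.30 in Oct4hi arrays, 6.36 and 6.61 in Oct4med arrays, and 6.51, 6.46, 6.72 and 6.52 in Oct4low arrays. It differed by 0.55 ± 0.09 (SE; adjusted p = 0.00097) from Oct4low BCCs and by 0.62 ± 0.11 (SE; adjusted p = 0.00249) from Oct4med BCCs.

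Of the other KRAB genes among the 12 largest rises, ZNF114 had 6.52, 6.43, 6.52 and 6.51 in Oct4hi arrays, 5.88 and 6.14 in Oct4med arrays, and 5.82, 5.76, 5.89 and 6.11 in Oct4low arrays, and its difference from Oct4low BCCs was 0.60 ± 0.09 (SE; adjusted p = 0.000422). ZNF443 had 7.73, 7.75, 7.50 and 7.72 in Oct4hi arrays, 7.38 and 7.38 in Oct4med arrays, and 7.07, 7.24, 7.13 and 6.99 in Oct4low arrays, a difference of 0.57 ± 0.08 (SE; adjusted p = 0.000328). In both, every Oct4hi array exceeded every Oct4low array, and the Oct4med mean lay in between. The Oct4med and Oct4low arrays of ZNF114 overlapped (0.11, adjusted p = 0.484). ZNF565 had 6.78, 6.50, 6.17 and 6.75 in Oct4hi arrays, 6.22 and 6.38 in Oct4med arrays, and 5.97, 5.83, 6.02 and 6.11 in Oct4low arrays, a difference of 0.57 ± 0.12 (SE; adjusted p = 0.00409). ZNF85 averaged 7.60 ± 0.10 in Oct4hi (SD, n = 4), 7.25 ± 0.05 in Oct4med (n = 2) and 7.08 ± 0.05 in Oct4low BCCs (n = 4), a difference of 0.52 ± 0.07 (SE; adjusted p = 0.000262). ZNF195, on chromosome 11, averaged 7.86 ± 0.07 in Oct4hi (SD, n = 4), 7.58 ± 0.37 in Oct4med (n = 2) and 7.38 ± 0.14 in Oct4low BCCs (n = 4), a difference of 0.49 ± 0.11 (SE; adjusted p = 0.00502). ZNF85 and ZNF114 were read by _x_at probe sets and ZNF195 by an _s_at probe set.

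Among ZNF genes known to silence repeats or imprints, 3 of the 10 listed were members, and 2 of them rose in Oct4hi against Oct4low BCCs. All 3 lie on chromosome 19, where 51.3% of members rose. Of all members 37.3% rose, and of all genes at or above 6.0 27.1% did. So few genes cannot be set apart from these shares. ZNF93, which represses LINE-1 elements, had 7.95, 7.92, 7.87 and 7.94 in Oct4hi arrays, 7.96 and 7.90 in Oct4med arrays, and 7.37, 7.41, 7.50 and 7.25 in Oct4low arrays. Both brighter subsets exceeded Oct4low BCCs, by 0.54 ± 0.07 (SE; adjusted p = 0.000197) for Oct4hi and 0.55 ± 0.09 (SE; adjusted p = 0.00103) for Oct4med, and Oct4hi and Oct4med BCCs differed by -0.01 (adjusted p = 0.943). ZNF91, which represses SVA elements, had 8.70, 8.49, 8.37 and 8.48 in Oct4hi arrays, 8.17 and 8.48 in Oct4med arrays, and 8.02, 7.95, 8.06 and 8.11 in Oct4low arrays, with Oct4hi above Oct4low BCCs by 0.47 ± 0.09 (SE; adjusted p = 0.00217). A dimmer probe set of ZNF91 also rose (0.37, adjusted p = 0.0204), as did a dimmer probe set of ZNF93 (0.48, adjusted p = 0.00906). That probe set of ZNF93 did not pass in Oct4med against Oct4low BCCs (0.35, adjusted p = 0.117). ZNF765 averaged 8.39 ± 0.07 in Oct4hi (SD, n = 4), 8.32 ± 0.16 in Oct4med (n = 2) and 8.23 ± 0.19 in Oct4low BCCs (n = 4) and did not pass (0.16, adjusted p = 0.235).

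The 4 members that fell in Oct4hi against Oct4low BCCs were of different kinds. ZNF436-AS1, an antisense RNA, had 6.17, 6.52, 6.48 and 6.43 in Oct4hi arrays, 6.68 and 6.33 in Oct4med arrays, and 6.79, 6.89, 6.92 and 6.62 in Oct4low arrays, a difference of -0.41 ± 0.11 (SE; adjusted p = 0.0115). ZNF362, a C2H2 gene without KRAB, had 8.18, 8.11, 8.11 and 8.21 in Oct4hi arrays, 8.03 and 7.98 in Oct4med arrays, and 8.39, 8.38, 8.46 and 8.55 in Oct4low arrays. It fell in Oct4hi against Oct4low BCCs by 0.29 ± 0.07 (SE; adjusted p = 0.0062) and in Oct4med against Oct4low BCCs by 0.44 ± 0.08 (SE; adjusted p = 0.00321). A dimmer probe set of ZNF362 had the opposite sign, with 0.19 (adjusted p = 0.0763) in Oct4hi against Oct4low BCCs and 0.35 (adjusted p = 0.025) in Oct4med against Oct4low BCCs. With the mean of both probe sets, both calls were lost (-0.05 each, adjusted p = 0.569 and 0.693). ZNF133, a KRAB repressor, averaged 6.87 ± 0.13 in Oct4hi (SD, n = 4), 6.96 ± 0.05 in Oct4med (n = 2) and 7.12 ± 0.02 in Oct4low BCCs (n = 4), a difference of -0.25 ± 0.08 (SE; adjusted p = 0.0217). That call was lost without Oct4low replicate 2 (adjusted p = 0.0521) or 4 (adjusted p = 0.0514) and without Oct4hi replicate 2 (adjusted p = 0.0523) or 3 (adjusted p = 0.0596). ZNF792, a KRAB gene, averaged 5.91 ± 0.18 in Oct4hi (SD, n = 4), 6.26 ± 0.09 in Oct4med (n = 2) and 6.19 ± 0.12 in Oct4low BCCs (n = 4), a difference of -0.28 ± 0.10 (SE; adjusted p = 0.0414), and its arrays overlapped.

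The members of chromosome 19 carried more of the rise. In Oct4hi against Oct4low BCCs, 39 of the 76 members there rose (51.3%) and 1 fell, with a median difference of 0.24. Of the 82 members on other chromosomes 20 rose (24.4%) and 3 fell, with a median of 0.09. The other genes of chromosome 19 at or above 6.0 did not share it, since 27 of 222 rose (12.2%) and 37 fell (16.7%), with a median of -0.07. On the other chromosomes, 27.5% of 4757 genes other than ZNF rose. The difference between these shares was not tested.

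The rises on chromosome 19, 51.3% of all members there, were also counted among neighbours, and whether neighbours moved together was not tested. Members with at most 10 other protein-coding genes between neighbours were joined, which gave 13 runs. In the run of 13 members from ZNF101 to ZNF507, which holds ZNF93, ZNF682, ZNF826P, ZNF85, ZNF43 and ZNF91, 10 rose and the median difference was 0.37. In the run of 12 from ZNF565 to ZNF573, which holds ZNF566 and ZNF850, 10 rose and the median was also 0.37. In the run of 10 from ZNF627 to ZNF791 5 rose, and in that of 5 from ZNF45 to ZNF226 3 rose. In the last runs toward the end of the long arm the share was lower, with 3 of 12 from ZNF880 to ZNF331 and 3 of 10 from ZNF787 to ZNF135. Neighbours arose by duplication and can share probe sequence, so they are not separate observations.

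**Figure D4:**
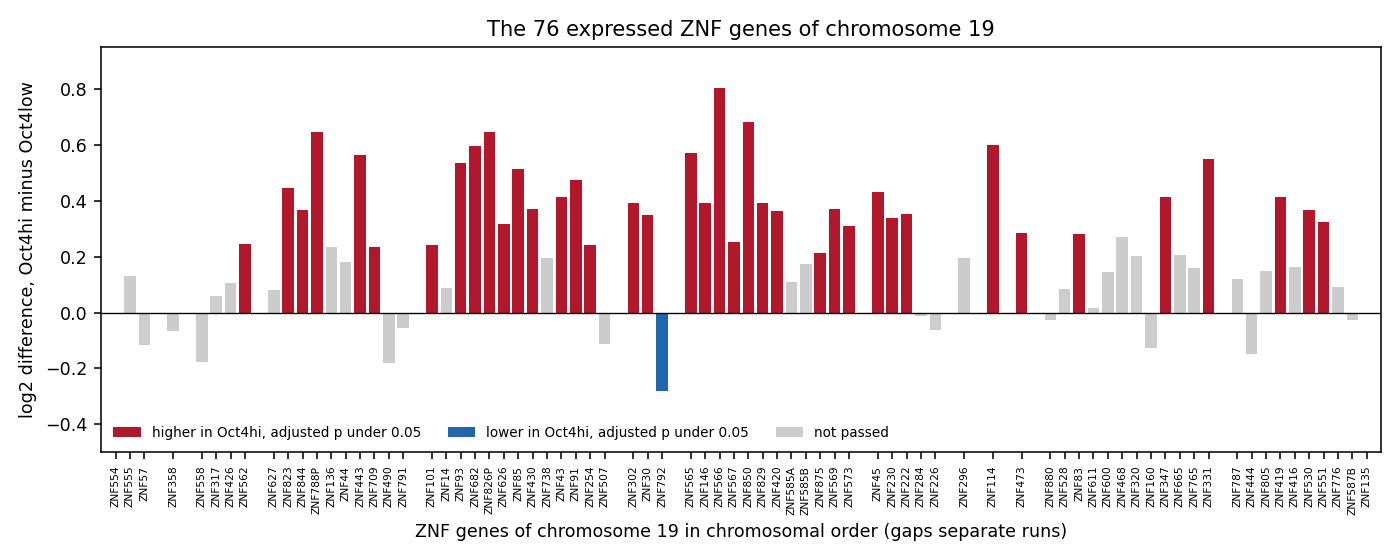
Log2 difference between the means of Oct4hi and Oct4low BCCs (vertical axis, Oct4hi minus Oct4low) for the 76 expressed ZNF genes of chromosome 19 in chromosomal order (horizontal axis, not to scale; gaps separate the 13 runs), coloured by limma's adjusted p. Of these genes 39 rose and 1, ZNF792, fell, and 20 of the rises are in the runs from ZNF101 to ZNF507 and from ZNF565 to ZNF573.

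Oct4med BCCs showed no common direction against Oct4low BCCs. Of the 158 members 11 rose (6.96%), 14 fell (8.86%) and 133 did not pass. Of all tested probe sets 5.19% rose and 15.5% fell, and of genes at or above 6.0 6.37% rose and 15.1% fell. The median difference of the members was 0.01, with 79 members above 0 and 79 below. This split depended on the scaling. After a second quantile normalization 35 rose and 13 fell, and after a shift of the arrays to a common median 6 rose and 12 fell. It also depended on single Oct4med arrays, since 9 rose and 6 fell without Oct4med replicate 1, while 3 rose and 12 fell without Oct4med replicate 2. Control probe sets for ribosomal RNA also differed in these arrays, with the 5′ set of 28S at 13.57 in Oct4hi, 12.70 in Oct4med and 13.60 in Oct4low BCCs, and the part of this in the results with Oct4med BCCs was not tested.

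The 8 largest falls in Oct4med against Oct4low BCCs were of genes without KRAB, 1 of them an antisense RNA. At a mean of 8 or more, 8 of 29 members fell (27.6%), where 19.2% of other genes of that level fell. ZNF207, also called BuGZ, binds the checkpoint protein BUB3 and spindle microtubules, and it had 7.36, 7.14, 7.32 and 7.55 in Oct4hi arrays, 6.63 and 7.07 in Oct4med arrays, and 7.49, 7.55, 7.52 and 7.59 in Oct4low arrays. The difference of Oct4med from Oct4low BCCs was -0.69 ± 0.13 (SE; adjusted p = 0.00301), and the call was lost without Oct4med replicate 1 (-0.46, adjusted p = 0.0523). Of its 5 other probe sets at or above 6.0, 4 also fell, with log2 differences of -0.71 to -1.36. In Oct4hi against Oct4low BCCs the brightest probe set of ZNF207 did not pass (-0.20, adjusted p = 0.165). Some of the others fell there (-0.74, adjusted p = 0.000875, -0.49, adjusted p = 0.00498, and -0.34, adjusted p = 0.0389). The remainder did not pass (-0.19, adjusted p = 0.235, and -0.16, adjusted p = 0.363), so that result depends on the probe set. ZNF451, a SUMO ligase, had 9.71, 9.64, 9.67 and 9.85 in Oct4hi arrays, 9.31 and 9.34 in Oct4med arrays, and 9.78, 9.98, 9.97 and 9.87 in Oct4low arrays, a difference of -0.57 ± 0.09 (SE; adjusted p = 0.00114). A dimmer probe set of ZNF451 did not pass in this comparison (-0.20, adjusted p = 0.202). ZNF503 and ZNF703 are related repressors without KRAB, and ZNF703 lies in a region amplified in luminal breast cancers. ZNF503 had 9.38, 9.43, 9.33 and 9.43 in Oct4hi arrays, 8.69 and 8.78 in Oct4med arrays, and 9.18, 9.29, 9.34 and 9.39 in Oct4low arrays, a difference of -0.57 ± 0.09 (SE; adjusted p = 0.000773) between Oct4med and Oct4low BCCs. ZNF703 had 7.77, 7.80, 7.87 and 7.86 in Oct4hi arrays, 7.39 and 7.40 in Oct4med arrays, and 7.93, 7.87, 7.89 and 8.001 in Oct4low arrays, a difference of -0.53 ± 0.08 (SE; adjusted p = 0.000772). In both, the Oct4med arrays lay below every array of the other subsets.

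ZNF335, a subunit of histone methyltransferase complexes, averaged 8.12 ± 0.09 in Oct4hi (SD, n = 4), 7.78 ± 0.08 in Oct4med (n = 2) and 8.22 ± 0.06 in Oct4low BCCs (n = 4), with Oct4med against Oct4low BCCs at -0.44 ± 0.09 (SE; adjusted p = 0.00504). ZNF512B averaged 8.51 ± 0.10 in Oct4hi (SD, n = 4), 8.10 ± 0.02 in Oct4med (n = 2) and 8.56 ± 0.17 in Oct4low BCCs (n = 4), with -0.45 ± 0.11 (SE; adjusted p = 0.0139), a call lost without Oct4med replicate 1 (adjusted p = 0.0798) or 2 (adjusted p = 0.0545). The antisense RNA ZNF674-AS1 averaged 6.30 ± 0.08 in Oct4hi (SD, n = 4), 5.70 ± 0.29 in Oct4med (n = 2) and 6.21 ± 0.06 in Oct4low BCCs (n = 4), with -0.51 ± 0.11 (SE; adjusted p = 0.00718), a call lost without Oct4med replicate 1 (-0.31, adjusted p = 0.101). All 3 had Oct4hi and Oct4low BCCs at like levels, with adjusted p between 0.336 and 0.707 for that difference.

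The 8 largest rises in Oct4med against Oct4low BCCs were of KRAB genes, ZNF93 among them. ZNF627 had 7.54, 7.65, 7.49 and 7.64 in Oct4hi arrays, 7.95 and 8.11 in Oct4med arrays, and 7.57, 7.44, 7.54 and 7.46 in Oct4low arrays. It was high in Oct4med BCCs alone, by 0.53 ± 0.09 (SE; adjusted p = 0.00146) over Oct4low BCCs, and Oct4hi minus Oct4med was -0.45 ± 0.09 (SE; adjusted p = 0.00368). ZNF823 had 6.74, 6.64, 6.43 and 6.53 in Oct4hi arrays, 6.60 and 6.91 in Oct4med arrays, and 6.002, 6.05, 6.32 and 6.19 in Oct4low arrays, with Oct4med above Oct4low BCCs by 0.61 ± 0.12 (SE; adjusted p = 0.00474). ZNF680 had 6.38, 6.65, 6.45 and 6.45 in Oct4hi arrays, 6.51 and 6.86 in Oct4med arrays, and 6.07, 6.16, 6.24 and 5.95 in Oct4low arrays, with Oct4med above Oct4low BCCs by 0.58 ± 0.12 (SE; adjusted p = 0.00539). Without Oct4med replicate 2 neither of these passed, at 0.46 (adjusted p = 0.0579) for ZNF823 and 0.41 (adjusted p = 0.0656) for ZNF680. ZNF709 differed by 0.40 ± 0.10 (SE; adjusted p = 0.0126), and that call was lost without Oct4med replicate 2 (0.31, adjusted p = 0.0934). ZNF267 (0.45), ZNF555 (0.37) and ZNF354B (0.35) passed with adjusted p between 0.0364 and 0.0398, and each lost its call without several single arrays, ZNF555 at 0.18 (adjusted p = 0.309) without Oct4med replicate 2.

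Oct4hi BCCs were above Oct4med BCCs in 46 members (29.1%) and below in 7 (4.43%), with 105 not passed. The shares were 18.2% and 8.61% of all tested probe sets and 24.3% and 10.4% of genes at or above 6.0. The median difference was 0.19, against 0.07 for all genes at or above 6.0. A second quantile normalization gave 30 and 12. These counts rested on 1 array, since without Oct4med replicate 1 the number that passed was 15 (13 above and 2 below).

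The largest rises of Oct4hi over Oct4med BCCs were in genes already named and in 2 antisense RNAs. ZNF503 exceeded Oct4med BCCs by 0.66 ± 0.09 (SE; adjusted p = 0.00026). ZNF232-AS1 had 8.16, 8.27, 8.02 and 8.26 in Oct4hi arrays, 7.40 and 7.64 in Oct4med arrays, and 7.62, 7.78, 7.68 and 7.83 in Oct4low arrays, a difference of 0.66 ± 0.11 (SE; adjusted p = 0.00107). ZNF674-AS1 differed by 0.60 ± 0.11 (SE; adjusted p = 0.00244). ZNF669 differed by 0.56 ± 0.14 (SE; adjusted p = 0.0127) and ZNF569 by 0.52 ± 0.13 (SE; adjusted p = 0.0103), both KRAB genes. ZNF669 lost its call without Oct4med replicate 1 (0.31, adjusted p = 0.209) and ZNF569 without Oct4med replicate 2 (0.38, adjusted p = 0.0805). Antisense RNAs overlap their partner genes, and probe sets of this array type are designed to read a single strand.

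The 7 members lower in Oct4hi than in Oct4med BCCs were led by the KRAB gene ZNF57. It had 6.84, 6.33, 6.50 and 6.71 in Oct4hi arrays, 7.13 and 7.11 in Oct4med arrays, and 6.65, 6.60, 6.91 and 6.67 in Oct4low arrays, and Oct4hi minus Oct4med was -0.52 ± 0.14 (SE; adjusted p = 0.0147). Without Oct4med replicate 1 this call was lost (-0.51, adjusted p = 0.0996). The KRAB gene ZNF627 came next. ZNF843, ZNF792, ZNF12, ZNF490 and ZNF236 had differences of -0.42, -0.36, -0.30, -0.29 and -0.26, and each of these 5 lost its call without Oct4med replicate 1 (adjusted p = 0.274, 0.116, 0.0858, 0.352 and 0.433).

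The positions of Oct4med BCCs varied. Of the 59 members that rose in Oct4hi against Oct4low BCCs, the Oct4med mean was in between in 35, above both in 7 and below both in 17. Of the 1392 genes at or above 6.0 that rose, it was in between in 756, above both in 135 and below both in 501. Over all members, 64 passed in none of the 3 comparisons, 27 rose only in Oct4hi against Oct4low BCCs, 24 were higher in Oct4hi than in both other subsets without passing between those, and 10 were lower in Oct4med than in both others. The same patterns are not given here for all genes, so whether they are particular to the members was not tested. ZNF875 also passed in all 3 comparisons, with means of 6.26 in Oct4hi, 5.78 in Oct4med and 6.05 in Oct4low BCCs.

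The 5 brightest members did not move alike. ZNF638, which acts in splicing and in silencing of retroviral DNA, averaged 10.34 ± 0.04 in Oct4hi (SD, n = 4), 10.53 ± 0.12 in Oct4med (n = 2) and 10.32 ± 0.05 in Oct4low BCCs (n = 4) and did not pass in Oct4hi against Oct4low BCCs (adjusted p = 0.827). Of its 3 dimmer probe sets 2 fell in that comparison (-0.73, adjusted p = 0.0019, and -0.40, adjusted p = 0.00284), and the first of them also fell in Oct4med against Oct4low BCCs (-1.23, adjusted p = 0.000401), so the result for ZNF638 depends on the probe set. ZNF217, a breast cancer oncogene that recruits corepressors, had 10.51, 10.59, 10.36 and 10.39 in Oct4hi arrays, 10.14 and 10.38 in Oct4med arrays, and 10.12, 10.16, 10.28 and 10.29 in Oct4low arrays, with Oct4hi above Oct4low BCCs by 0.25 ± 0.08 (SE; adjusted p = 0.0361). Its call was lost without Oct4low replicate 1 (adjusted p = 0.0885) or 2 (adjusted p = 0.0902), without Oct4hi replicate 1 (adjusted p = 0.0901) or 2 (adjusted p = 0.108), and after a second quantile normalization (0.13, adjusted p = 0.183). ZNF22 differed by 0.37 ± 0.11 (SE; adjusted p = 0.0184), lost without Oct4low replicate 3 (adjusted p = 0.0542) or Oct4hi replicate 1 (adjusted p = 0.0596). ZNF721 did not pass (-0.10 ± 0.12 (SE; adjusted p = 0.541)). ZNF451 did not pass in Oct4hi against Oct4low BCCs (adjusted p = 0.0812), but fell in Oct4med against Oct4low BCCs by 0.57 (adjusted p = 0.00114). A dimmer probe set of ZNF451 had the other pattern. It fell in Oct4hi against Oct4low BCCs (-0.35, adjusted p = 0.0075) and did not pass in Oct4med against Oct4low BCCs (-0.20, adjusted p = 0.202).

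By role, transcription factors and chromatin regulators without KRAB had 11 members, of which 2 rose and 1 fell in Oct4hi against Oct4low BCCs (median -0.02), and 4 fell in Oct4med against Oct4low BCCs. For all genes at or above 6.0 the shares were 27.1% and 18.1% in the first comparison and 15.1% in the second. ZNF644, a partner of the G9a and GLP methyltransferases, averaged 6.75 ± 0.22 in Oct4hi (SD, n = 4), 6.78 ± 0.27 in Oct4med (n = 2) and 6.35 ± 0.12 in Oct4low BCCs (n = 4), with Oct4hi above Oct4low BCCs by 0.39 ± 0.12 (SE; adjusted p = 0.023). Without Oct4hi replicate 1 it was 0.29 (adjusted p = 0.0665), and it also lost its call without Oct4low replicate 2 (adjusted p = 0.0547) or 3 (adjusted p = 0.0637). Genes of RNA, ribosome, spindle and SUMO function had 8 members, of which 2 rose in Oct4hi against Oct4low BCCs (median 0.01). ZNF106, an RNA-binding protein, averaged 9.24 ± 0.06 in Oct4hi (SD, n = 4), 9.01 ± 0.05 in Oct4med (n = 2) and 8.91 ± 0.08 in Oct4low BCCs (n = 4), a difference of 0.33 ± 0.07 (SE; adjusted p = 0.00356). ZNF326, of a complex that couples elongation and splicing, averaged 7.71 ± 0.08 in Oct4hi (SD, n = 4), 7.29 ± 0.18 in Oct4med (n = 2) and 7.47 ± 0.02 in Oct4low BCCs (n = 4), a difference of 0.24 ± 0.08 (SE; adjusted p = 0.0264). Another bright probe set of ZNF326 fell (-0.46, adjusted p = 0.0158), and their mean was -0.11 (adjusted p = 0.409). The direction of ZNF326 therefore depends on the probe set.

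Other probe sets were compared with those that stood for the genes. Of the members that rose in Oct4hi against Oct4low BCCs, 22 had 24 further tested probe sets, of which 20 had the same sign, 14 also passed and 2 passed in the opposite direction. The 2 were those of ZNF326 and ZNF302. ZNF302, chosen after its values were seen, rose by 0.39 (adjusted p = 0.0053), while a dimmer probe set fell (-0.36, adjusted p = 0.00317). Of the 11 further probe sets of members that fell in Oct4med against Oct4low BCCs 9 had the same sign, and of the 18 of members higher in Oct4hi than in Oct4med BCCs 17 did. For the members lower in Oct4hi than in Oct4low BCCs it was 0 of 1, and for those lower in Oct4hi than in Oct4med BCCs 1 of 4. For those higher in Oct4med than in Oct4low BCCs it was 1 of 1, which did not pass. With the mean of their probe sets, ZNF12 was at -0.02 (adjusted p = 0.847) and ZNF843 at -0.15 (adjusted p = 0.226) in Oct4hi against Oct4med BCCs.

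The partners through which KRAB proteins silence chromatin were counted in the same way. Of 31 listed genes 18 were in the table and 17 were tested, and TRIM28 and SETDB1 are not analysed here. In Oct4hi against Oct4low BCCs 7 rose and 0 fell (limma; 0 fell at an unadjusted p under 0.05 and 0 by the methods' t-test), with a median of 0.21. Among all genes at or above 6.0, 27.1% rose and 18.1% fell. Most partners that rose had a mean of 8 or more, and among genes other than ZNF of that level 35.9% rose and 21.3% fell. The number of partners that rose was thus near the share at that level, and the shares were not tested against each other. The 7 partners were DNMT3B, SUV39H1, ATRX, CBX5, RCOR1, SUV39H2 and CHD4. DNMT3B, a de novo DNA methyltransferase, had 8.49, 8.51, 8.51 and 8.53 in Oct4hi arrays, 7.71 and 7.86 in Oct4med arrays, and 7.87, 7.95, 8.03 and 7.82 in Oct4low arrays, a difference of 0.59 ± 0.07 (SE; adjusted p = 9.66e-05). SUV39H1, which methylates histone H3 in heterochromatin, had 7.85, 7.94, 8.04 and 8.09 in Oct4hi arrays, 7.81 and 7.38 in Oct4med arrays, and 7.34, 7.55, 7.28 and 7.56 in Oct4low arrays, a difference of 0.55 ± 0.11 (SE; adjusted p = 0.00224). ATRX, a remodeller of heterochromatin, had 10.15, 9.64, 9.49 and 9.88 in Oct4hi arrays, 9.08 and 9.89 in Oct4med arrays, and 9.39, 9.31, 9.20 and 9.12 in Oct4low arrays, a difference of 0.54 ± 0.17 (SE; adjusted p = 0.0281), and without Oct4hi replicate 1 it did not pass (0.41, adjusted p = 0.0865). In Oct4hi against Oct4med BCCs 4 rose and 1, SMARCAD1, fell, where 24.3% of genes at or above 6.0 rose and 10.4% fell. In Oct4med against Oct4low BCCs 0 passed after limma's adjustment, with 2 higher and 2 lower at an unadjusted p under 0.05 and 0 by the methods' t-test. Of genes at or above 6.0, 6.37% rose and 15.1% fell in that comparison after limma's adjustment.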

How the data were processed

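RNA of 10 samples was measured on Affymetrix U133 Plus 2.0 arrays. According to the study's methods, the authors background-corrected the intensities, log2-transformed them, normalized them by RMA in BRB-Array Tools and left out features near background or with little change. The deposited values are log2 intensities of 25750 probe sets, 23 of them controls. A ZNF gene that hardly varied may therefore not be among the genes counted. The platform annotation gives 1 symbol to 18682 probe sets other than controls, several to 799 and none to 6268.

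The members and gene lists were chosen with earlier results of these data known. The brightest probe set stood for a gene, and its mean had to be at least 6.0. A probe set was tested where 2 or more arrays had it no lower than the array median, which left 13872, all 158 members included. The subsets' means were estimated in a single fit to the 10 arrays (limma 3.58.1, R 4.3.3), first tested on simulated data. The moderated test was two-sided, and its p-values were adjusted by Benjamini-Hochberg over every tested probe set, with a threshold of 0.05. The 4 experiments were not modelled, so p-values measure the spread between arrays, and the number of arrays limits the precision.

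Named members were, among those past the threshold with no overlap of the arrays, the 12 largest rises and falls of Oct4hi against Oct4low BCCs and the 8 of each other comparison. The rule added stepwise members, the 5 brightest, those next to the limit, up to 3 of each list and those with an opposite bright probe set. Promoters and chromosomes came from RefSeq (GRCh38.p14). Alternatives were other filters, scalings, array weights, prior, tests, probe sets and level limits, the replicate number as a block and leaving out each array. Protein sequences were not analysed here.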

Additional observations from a re-analysis of the deposited data

Results flagged for a closer look

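In 3 of the 100 groups of 4 arrays formed by the 50 named members, 1 array lay apart from the other 3 by Dixon's test, where chance flags about 1 group in 20. In ZNF443, Oct4hi replicate 3 was at 7.50, below the other Oct4hi arrays at 7.72 to 7.75 and above all Oct4low arrays. In ZNF114, Oct4hi replicate 2 was at 6.43, below the others at 6.51 to 6.52. In ZNF765, Oct4low replicate 4 was at 7.95, below the others at 8.30 to 8.37.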

How the results depend on the processing

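The rise of the members in Oct4hi against Oct4low BCCs kept its direction under every alternative run, while the counts with Oct4med BCCs moved with many. An ordinary t-test was also run, which shares no variance across genes, unlike the t-test of the study's methods. At its unadjusted p under 0.001, 20 members passed in Oct4hi against Oct4low, 2 in Oct4med against Oct4low and 7 in Oct4hi against Oct4med. By the ordinary F-test 24 passed across the 3 subsets. Of the corepressor partners 4 passed that t-test in Oct4hi against Oct4low and 1 in Oct4hi against Oct4med. After Benjamini-Hochberg, the same t-test gave 11 members in Oct4med against Oct4low, 20 members and 2 partners in Oct4hi against Oct4med. With a level limit of 7.0 fewer genes were counted, and 32, 14, 29 and 45 members passed in the same order. For Oct4med against Oct4low, no filter gave 16 members (6 higher, 10 lower), array weights also 16, and a second quantile normalization 48 (35 higher, 13 lower) with a median of 0.092. For Oct4hi against Oct4med that normalization gave a median of 0.086. A shift to a common median gave a median of 0.22 in Oct4hi against Oct4low. For the partners in Oct4med against Oct4low, the stricter filter gave 2, the quantile normalization 1 and the mean of a gene's probe sets 1. In Oct4hi against Oct4med no filter gave 2, array weights 3 and a fit of only the 2 subsets 3. The cause of these moves was not tested.

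Same-numbered arrays had correlations of deviations from the subset means of -0.264 to 0.277. The deviations of the 2 Oct4med arrays are mirror images of each other, and few pairs remain between the other subsets. Whether the numbers pair the samples therefore cannot be decided from these correlations. With the replicate number as a block, 53 members passed in Oct4hi against Oct4low, 13 in Oct4med against Oct4low and 27 in Oct4hi against Oct4med, with 2 partners in Oct4hi against Oct4med.

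Leaving out each array in turn gave 47 to 66 members in Oct4hi against Oct4low, 15 to 24 in Oct4med against Oct4low, 15 to 56 in Oct4hi against Oct4med and 64 to 86 across the 3 subsets. The lowest member count of Oct4hi against Oct4med came without Oct4med replicate 1, and that of Oct4med against Oct4low without Oct4med replicate 1 and, as low, without replicate 2. Where 1 Oct4med array was left, it was assumed to vary like the other subsets. The partners numbered 5 to 7, 0 to 2 and 3 to 8, and the members' medians were 0.16 to 0.21, -0.03 to 0.07 and 0.10 to 0.28 in the 3 comparisons in that order. Of 54 calls of named members, 26 passed under every alternative run. The 61 pairs of a named member and a comparison, called or not, had 1213 alternative values. Of these, 154 lost a call and 1 reversed, ZNF326 in Oct4hi against Oct4low with the mean of its probe sets (-0.11, adjusted p = 0.409). Pairs that were not called had no call to lose.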
